A study of Mus musculus with 16 samples.

Results

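The genes examined here are 42 mouse genes of DNA replication and S phase, taken as a list of symbols that spans origin licensing, helicase activation, DNA polymerases, the sliding clamp, Okazaki fragment maturation, nucleotide supply, the S phase cyclins and Uhrf1. All 42 were among the 17655 gene symbols listed in the deposited tables, and all 42 were among the 12357 genes expressed highly enough to be tested. They were measured by RNA sequencing in preSC, precancerous neuroendocrine cells of the mouse lung that stand for an early step of small cell lung cancer. The 16 deposited samples formed 2 groups of 8. The group called empty carried a lentivirus with no insert, and the group called Wnt5a carried a lentivirus with Wnt5a, a secreted ligand known for non-canonical Wnt signalling. Both groups shared the rest of their genotype: they were null for Rb1 and for Trp53 and had 1 null allele of Rbl2. Both were also given doxycycline at 1 µg/mL for 48 hours before RNA was extracted. The labels do not say which promoter drove the transgene, whether each line was 1 clone, or whether the samples of a group came from separate cultures. P-values therefore measure only the spread between the libraries defined below, which limma draws toward that of genes of similar level. The question addressed was whether the replication machinery was expressed at another level in preSC that carry Wnt5a.

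DNA replication is prepared in G1, when the origin recognition complex, Cdc6 and Cdt1 load the ring-shaped MCM helicase onto origins. At the start of S phase Cdc45 and the GINS complex join the MCM ring to form the active helicase, after which polymerase alpha with its primase makes primers, polymerases delta and epsilon extend them, and the clamp Pcna holds the polymerases on DNA. Many of these genes are classic targets of the E2F transcription factors, which the retinoblastoma protein, the product of Rb1, holds in check. Small cell lung cancer is known for loss of the retinoblastoma protein, and the deletion of Rb1 in both groups forms the common background of every value below.

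Recovered read totals were 7526676 to 8859862 per sample. Within each group, samples 1 to 4 differed from one another by about the counting noise, as did samples 5 to 8, while pairs across that divide differed far more (index of dispersion 0.987 to 1.05 in 24 pairs against 5.23 to 5.44 in 32 pairs, where 1 is counting noise). Samples 1 to 4 were therefore averaged and counted as 1 library, A, and samples 5 to 8 as library B, which left 2 libraries per group. The gene carried by the lentivirus was higher in the group labelled with it: Wnt5a had a normalised read count of 144 and 99.8 in the empty libraries and of 1049 and 1509 in the Wnt5a libraries (log2 difference 3.38, SE 0.22; limma adjusted p = 0.0010). The 8 neuroendocrine markers examined, Chga among them, were all detected, with summed values of 31167 and 30553 in the empty libraries and of 28425 and 26879 in the Wnt5a libraries. Markers of leukocytes and of endothelium summed to at most 15.5 and 5.79 per library, and those of other lung epithelium to at most 47.9. The 5 fibroblast markers detected summed to 604 and 353 in the empty libraries and to 244 and 248 in the Wnt5a libraries, nearly all of it Dcn (597, 340, 241 and 246), and the part of these differences in any result below was not tested.

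The promoters of 34 of the 42 genes were in the RefSeq table of GRCm38.p6, each covering 250 bases before to 50 bases after an annotated start. They were searched on both strands for 4 words of the E2F consensus: TTTCCCGC, TTTGGCGC, TTTGCCGC and TTTCGCGC. One or more of these words was found in 14 of the 34 genes (41.2%), against 4.8% of 9700 tested genes with a promoter and 2.26% of all 32851 promoters of the same length. The stretches that follow show genes with a word upstream of the start, 5′ to 3′ on the strand of the gene, with the words in capitals, and then the 80 bases before the start of Pola2 and Ccne1, whose expression is described below and whose windows hold none of the words.
Orc1: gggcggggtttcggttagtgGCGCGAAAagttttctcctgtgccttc
Cdc6: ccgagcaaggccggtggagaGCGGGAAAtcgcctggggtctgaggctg
Mcm5: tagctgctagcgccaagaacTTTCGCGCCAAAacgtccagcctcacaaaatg
Mcm6: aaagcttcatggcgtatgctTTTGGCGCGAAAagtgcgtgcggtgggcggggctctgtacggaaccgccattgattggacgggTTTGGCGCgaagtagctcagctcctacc
Pola1: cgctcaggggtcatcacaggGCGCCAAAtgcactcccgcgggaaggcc
Uhrf1: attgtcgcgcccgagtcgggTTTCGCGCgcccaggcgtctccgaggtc
Pola2: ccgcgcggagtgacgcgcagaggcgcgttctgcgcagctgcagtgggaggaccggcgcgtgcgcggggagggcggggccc
Ccne1: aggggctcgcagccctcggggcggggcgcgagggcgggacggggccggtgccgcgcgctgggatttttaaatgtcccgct

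These stretches lie in GRCm38.p6 at chr4:108579407-108579453 (Orc1, plus strand), chr11:98907993-98908040 (Cdc6, plus strand), chr8:75109336-75109387 (Mcm5, plus strand) and chr1:128359725-128359835 (Mcm6, minus strand). The others lie at chrX:93632266-93632313 (Pola1, minus strand), chr17:56304108-56304155 (Uhrf1, plus strand), chr19:5964207-5964286 (Pola2, minus strand) and chr7:38107491-38107570 (Ccne1, minus strand). In Mcm5, and at the first position in Mcm6, 2 words overlap, 1 on each strand, so that 1 site is matched in both directions. Of the 20 matches in the 14 genes, 12 lay wholly before the start, from 185 bases before it in Uhrf1 to 10 bases before it in Rfc3. A match describes letters only and is not evidence of binding.

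Other short words were distributed differently. CCAAT was found in 21 of the 34 promoters (61.8%), against 43.5% of tested genes. The words TTTGAA and TTCGAA, which match the cell cycle homology region (CHR) known from promoters of mitotic genes, were found in 7 of 34 (20.6%), against 15.8% of tested genes. Among 26 genes of G2 and mitosis with a promoter in the table the order was the opposite: 1 held an E2F word (3.85%), and 20 held a CHR word (76.9%). The E2F words were thus more frequent in the replication list and the CHR words in the mitotic list, as the plot of these shares shows.

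**Figure D1:**
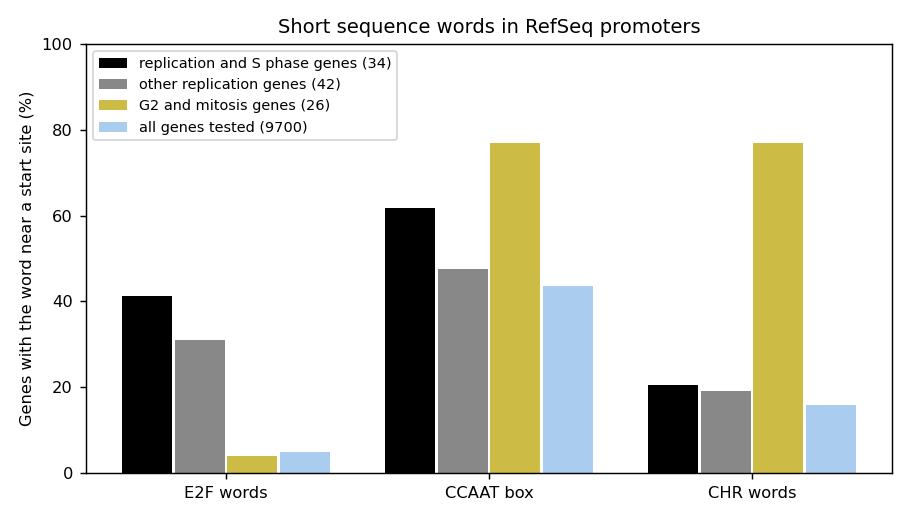
Share of genes (%, vertical axis) whose RefSeq promoter held an E2F word, CCAAT or a CHR word on either strand, for replication and S phase genes (black, 34), other replication genes (grey, 42), genes of G2 and mitosis (yellow, 26) and all tested genes (blue, 9700). E2F words stood at 41.2% and 31% in the 2 replication lists and at 3.85% in the mitotic list, while CHR words stood at 76.9% in the mitotic list.

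Transcript levels of the set were high and differed widely between genes. Compared per kilobase of the longest annotated transcript, 37 of the 42 genes lay above the median of the tested genes, and their median percentile was 80.9. Pcna, the sliding clamp, was highest at 2759 normalised reads per kb (percentile 99.4), followed by the helicase subunits Mcm6 (1135) and Mcm2 (1045), the small subunit of ribonucleotide reductase Rrm2 (980) and the dUTP hydrolase Dut (800). Orc1, the largest subunit of the origin recognition complex, was lowest at 16.3 per kb (percentile 12.4), a level 170 times below that of Pcna. Between these ends, the 6 subunits of the MCM ring ran from 456 (Mcm4) to 1135 (Mcm6) per kb, and the 4 GINS subunits from 41.7 (Gins2) to 218 (Gins4). By role, the median per kb was 644 for nucleotide supply, 509 for licensing and helicase loading, 209 for the polymerases and 108 for helicase activation. Divided by the summed exon length instead, Pcna (1745) and Orc1 (14.1) kept the extreme places, while by the median transcript length Mcm2 came first (5591) and Orc1 again last (73.2). By that length the MCM ring ran from 774 (Mcm5) to 5591 (Mcm2) and the GINS subunits from 77.9 (Gins2) to 288 (Gins1), so the order and the spread within these complexes depended on which length was used.

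Between the groups, few of the replication genes were called. With all libraries in the fit, the counts were near the shares of all tested genes and do not set the list apart. No gene of the 42 passed an adjusted p of 0.05 in limma (0 of 42, against 2.06% of all 12357 genes tested, 1.38% higher and 0.672% lower in Wnt5a). The edgeR quasi-likelihood test on recovered reads also called 0 (1.99% of all genes), and DESeq2 called 2, Pola2 and Fen1, both higher in Wnt5a (4.35% of all genes in either direction, 2.53% higher). At an unadjusted limma p under 0.05 there were 5 genes, higher for Gins1, Pola2 and Fen1 and lower for Mcm6 and Ccne1, against 16.1% of all genes. With libraries A and B as a block, a pairing that no label establishes, limma called these same 5 genes (17.0% of all genes). The count in limma depended on the empty libraries: without empty library A it was 2 (Pola2 and Fen1; 2.57% of all genes were higher), and without empty library B it was 5 (Mcm10, Pola2, Fen1, Rrm2 and Tk1; 4.49%), all higher in Wnt5a. Here and below, a difference in the share of cells in S phase and a difference in RNA per cell cannot be told apart in bulk RNA.

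The estimates were small but uneven in sign. The log2 difference, Wnt5a minus empty on the log2(value + 1) scale, ran from -0.28 (Ccne1) to 0.57 (Pola2), with a median of 0.05 (all tested genes 0.0026). It was above 0 for 32 of the 42 genes (76.2%, against 50.7% of all genes), and within 0.25 of 0 for 36 (85.7%, against 79.9%). The sign of the median rested on empty library A: the median was -0.0022 without it and 0.12 without empty library B. Both Wnt5a libraries lay above both empty libraries for 11 genes (22.7% of all genes) and below for 4 (21.5%), 15 genes in all against 44.2%. The 95% interval of the difference included 0 for 37 genes. It lay within 1 log2 unit of 0 for all 42 genes, so that a 2-fold change was outside the interval of each, and within 0.5 for 35. The interval reached 0.21 to either side of the estimate at the median, and 41 of the 42 genes had at least 200 reads in every library.

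**Figure D2:**
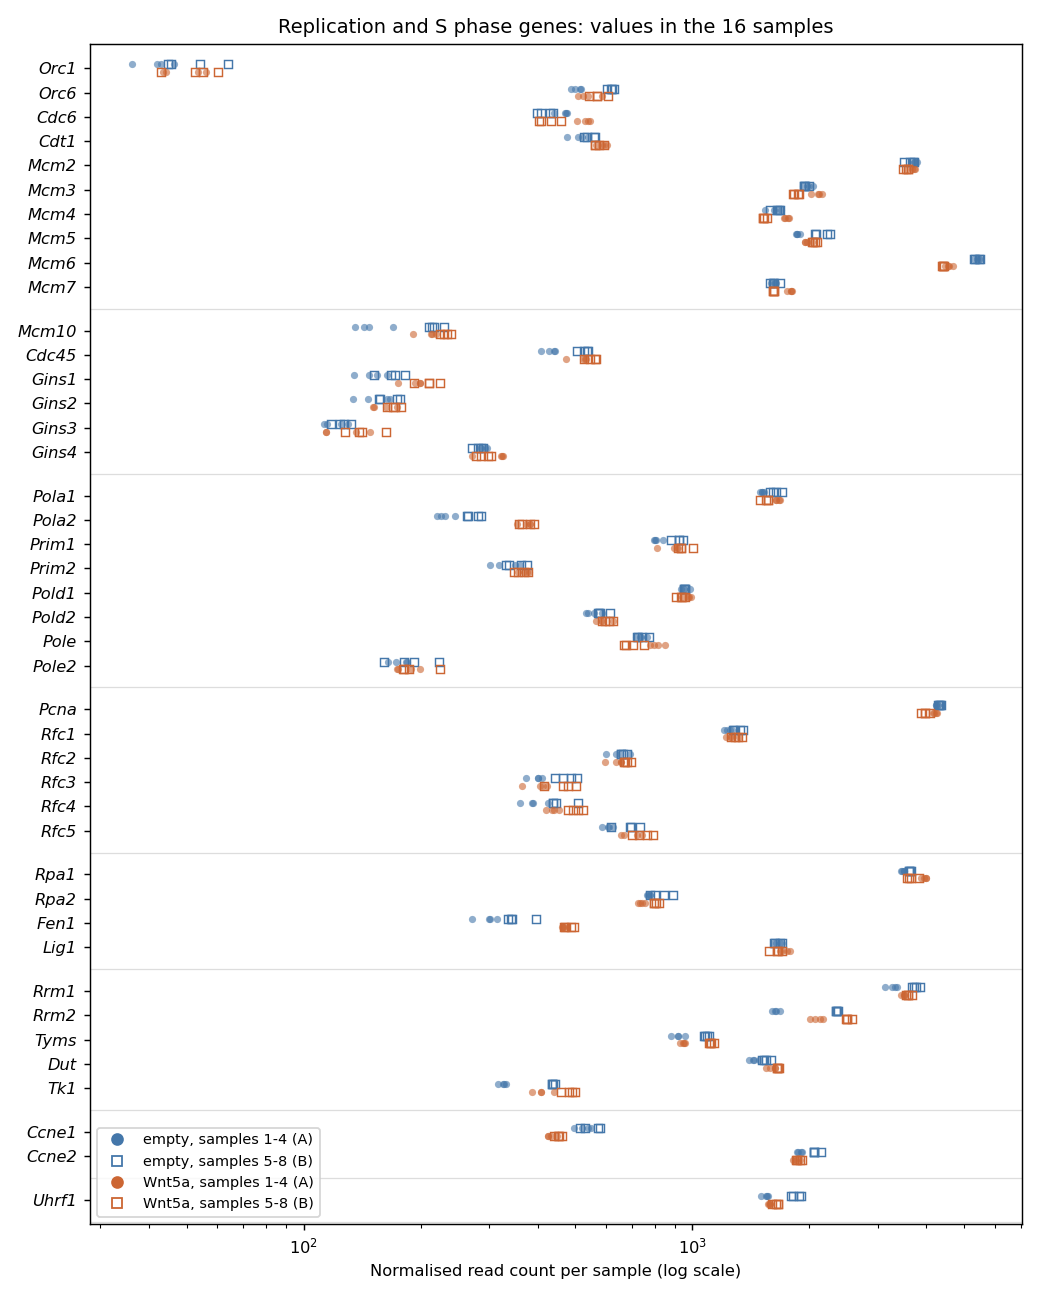
Normalised read count (horizontal axis, log scale) of each replication and S phase gene in the 8 empty (blue) and 8 Wnt5a (orange) samples, with samples 1 to 4 as filled circles and 5 to 8 as open squares, and genes separated by role. The groups overlap for 37 genes and are apart for 5 of the 42, Cdt1, Mcm6, Pola2, Fen1 and Ccne1, against 12.4% of all tested genes.

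Origin licensing and helicase loading comprised 10 genes, of which 7 had estimates above 0 and 3 below. Mcm6, a subunit of the MCM2-7 ring, had the lowest estimate of this group. Its normalised read count was 5300 at the lowest, 5427 at the median and 5495 at the highest of the 8 empty samples, and 4376, 4453 and 4669 in the 8 Wnt5a samples. The groups did not overlap in samples (12.4% of all tested genes did not) or in libraries (5412 and 5391 against 4563 and 4413). The log2 difference was -0.27 (95% interval -0.45 to -0.09; limma adjusted p = 0.14), with -0.25 in the A pair of libraries and -0.29 in the B pair. The gene is on chromosome 1, whose 690 tested genes had a median of -0.17. With the median of each chromosome subtracted, its difference was -0.09 (limma adjusted p = 0.73).

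The other subunits of the ring had estimates nearer 0 before any subtraction. Mcm2, Mcm3, Mcm4, Mcm5 and Mcm7 had log2 differences from -0.03 (Mcm2) to 0.07 (Mcm7), and their samples overlapped between the groups. The 95% intervals of these 5 genes all included 0. Mcm3, like Mcm6, lies on chromosome 1, and it was at 1982 and 1950 in the empty libraries and at 2097 and 1847 in the Wnt5a libraries. With the chromosome median subtracted, Mcm3 was at 0.18 (limma adjusted p = 0.53), farther from 0 than Mcm6.

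Cdt1, which with Cdc6 brings the MCM ring to origins, had the highest estimate of the licensing genes. Its values were 477, 531 and 561 (lowest, median and highest) in the empty samples and 563, 580 and 603 in the Wnt5a samples. The samples were apart by a narrow margin, and the log2 difference of 0.13 did not pass the test (95% interval -0.05 to 0.32; limma adjusted p = 0.49). Cdc6, whose promoter word is shown above, was at 464 and 418 in the empty libraries and at 529 and 427 in the Wnt5a libraries, so that libraries A and B differed more than the groups did. Orc1 was at 41.9 and 52.2 against 49.3 and 52.8, resting on 152 to 225 reads per library, the fewest in the set. Its log2 difference was 0.12 (95% interval -0.27 to 0.51, limma adjusted p = 0.81). Orc6, another subunit of the origin recognition complex, was at 504 and 618 against 539 and 571.

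Helicase activation comprised 6 genes, Mcm10, Cdc45 and the 4 GINS subunits, and all 6 estimates were above 0. Gins1 had the highest. It was at 135, 159 and 182 (lowest, median and highest) in the empty samples and at 175, 199 and 224 in the Wnt5a samples. The samples overlapped, while both Wnt5a libraries (192 and 209) lay above both empty libraries (150.0 and 168). The log2 difference was 0.33 (95% interval 0.07 to 0.59; limma adjusted p = 0.20), with 0.35 and 0.31 in the A and B pairs. Gins2 had the lowest estimate, 0.06 (95% interval -0.19 to 0.30; limma adjusted p = 0.87). Gins2 overlaps Gse1 on the opposite strand, and 29.7% of its 50-base windows were found in no other annotated gene, so its count is uncertain if reads were not assigned by strand.

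Mcm10, which helps to activate the loaded helicase, was the gene of this role that varied most between libraries. It was at 149 and 218 in the empty libraries and at 209 and 232 in the Wnt5a libraries. Its log2 difference was 0.49 in the A pair and 0.09 in the B pair. Empty library A stood lowest, and the other 3 libraries lay close together. Cdc45, a core part of the active helicase, had the same order, with 429 and 526 against 514 and 550.

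Polymerases and primase comprised 8 genes. Pola2, the regulatory subunit of polymerase alpha, had the largest difference of the whole set. Its values were 221, 254 and 286 (lowest, median and highest) in the empty samples and 354, 378 and 390 in the Wnt5a samples. The groups were well apart, and the libraries stood at 231 and 273 against 374 and 374. The log2 difference was 0.57, a ratio of 1.49 (95% interval of the log2 value 0.32 to 0.82; limma adjusted p = 0.053, edgeR 0.055, DESeq2 0.0023), with 0.69 and 0.45 in the A and B pairs. The gene is on chromosome 19, whose 412 tested genes had a median of 0.36. With the chromosome median subtracted, 0.21 remained (limma adjusted p = 0.54).

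The partners of Pola2 in the same complex had smaller estimates before any subtraction. Pola1, the catalytic subunit, lies on the X chromosome and was at 1511 and 1633 against 1659 and 1540 (log2 difference 0.03). The primase subunits Prim1 and Prim2 had estimates of 0.09 and 0.10. Prim2 is on chromosome 1, and with that chromosome's median subtracted it was at 0.27 (limma adjusted p = 0.24), above the 0.21 of Pola2. At the other end Pold1, the catalytic subunit of polymerase delta, had an estimate of -0.0022 (95% interval -0.17 to 0.17; limma adjusted p = 0.99), with libraries at 956 and 955 against 973 and 935. Pold2, Pole and Pole2 had estimates between 0.03 and 0.07.

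The clamp and its loader comprised Pcna and the 5 genes of replication factor C. Pcna, the most abundant transcript of the set per kb, was at 4229, 4288 and 4367 (lowest, median and highest) in the empty samples and at 3862, 4123 and 4255 in the Wnt5a samples. The samples overlapped at their edges, and the log2 difference was -0.07 (95% interval -0.25 to 0.11; limma adjusted p = 0.75). Rfc5 had the highest estimate of the role, with libraries at 607 and 684 against 696 and 746 and a log2 difference of 0.16 (95% interval -0.05 to 0.38; limma adjusted p = 0.46). Rfc1, Rfc2 and Rfc3 lay within 0.01 of 0, and Rfc4 was at 0.14. Pcna has the near-identical copy Pcna-ps2, and 68.2% of its 50-base windows were unique, so part of its reads could be shared.

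Single-strand binding and Okazaki fragment maturation comprised Rpa1, Rpa2, Fen1 and Lig1. Fen1, the nuclease that trims the flap of each Okazaki fragment, was the second gene with a large difference. Its values were 272, 325 and 397 (lowest, median and highest) in the empty samples and 463, 468 and 496 in the Wnt5a samples. The groups were apart, with libraries at 297 and 355 against 466 and 481. The log2 difference was 0.54, a ratio of 1.46 (95% interval of the log2 value 0.29 to 0.79; limma adjusted p = 0.062, edgeR 0.064, DESeq2 0.0030), with 0.65 and 0.44 in the A and B pairs. Fen1 also lies on chromosome 19, and 0.19 remained after the chromosome median was subtracted (limma adjusted p = 0.60). Only 18.8% of its 50-base windows were found in no other annotated gene, because Gm10143 is annotated on the other strand of the same locus, so reads of the 2 genes could be mixed if strand was not used. Lig1, the ligase that seals the fragments, was at 1661 and 1656 against 1730 and 1645. The single-strand binding subunits Rpa1 and Rpa2 had estimates of 0.10 and -0.05, the latter the lowest of the role (95% interval -0.25 to 0.15; limma adjusted p = 0.84).

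Nucleotide supply comprised Rrm1, Rrm2, Tyms, Dut and Tk1, and all 5 estimates were above 0. Tk1, thymidine kinase, had the highest. Its samples ran from 316 through a median of 384 to 443 in empty and from 388 through 450 to 498 in Wnt5a cells. The groups overlapped, and the libraries were at 325 and 438 against 410 and 482. The log2 difference was 0.24 (95% interval -0.13 to 0.60; limma adjusted p = 0.55), and the 1020 tested genes of its chromosome, 11, had a median of 0.17. Rrm1, the large subunit of ribonucleotide reductase, had the lowest estimate, 0.02 (95% interval -0.20 to 0.23; limma adjusted p = 0.95). Rrm2, the subunit whose level is known to peak in S phase, was at 1640 and 2350 against 2093 and 2515, a log2 difference of 0.22 with an interval from -0.19 to 0.64. For Rrm2 and Tk1 both B libraries stood above both A libraries, whatever the group.

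The S phase cyclins were the role with both estimates below 0. Ccne1, cyclin E1, which activates Cdk2 at the entry into S phase, was at 497, 535 and 577 (lowest, median and highest) in the empty samples and at 424, 444 and 461 in the Wnt5a samples. The groups were apart, with libraries at 526 and 549 against 433 and 452. The log2 difference was -0.28, a ratio of 0.82 (95% interval of the log2 value -0.47 to -0.09; limma adjusted p = 0.14, DESeq2 0.19), and it was the same in the A and B pairs. Ccne1 lies on chromosome 7, whose median was near 0, so -0.28 remained after subtraction (limma adjusted p = 0.21). Ccne2, cyclin E2, was at 1888 and 2076 against 1852 and 1878 (log2 difference -0.09, 95% interval -0.27 to 0.10; limma adjusted p = 0.69). Per kb, Ccne2 (640) stood above Ccne1 (245) in these cells. Uhrf1, which brings the maintenance DNA methyltransferase to newly replicated DNA, was at 1542 and 1847 against 1575 and 1644 (log2 difference -0.07, 95% interval -0.31 to 0.17; limma adjusted p = 0.82).

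**Figure D3:**
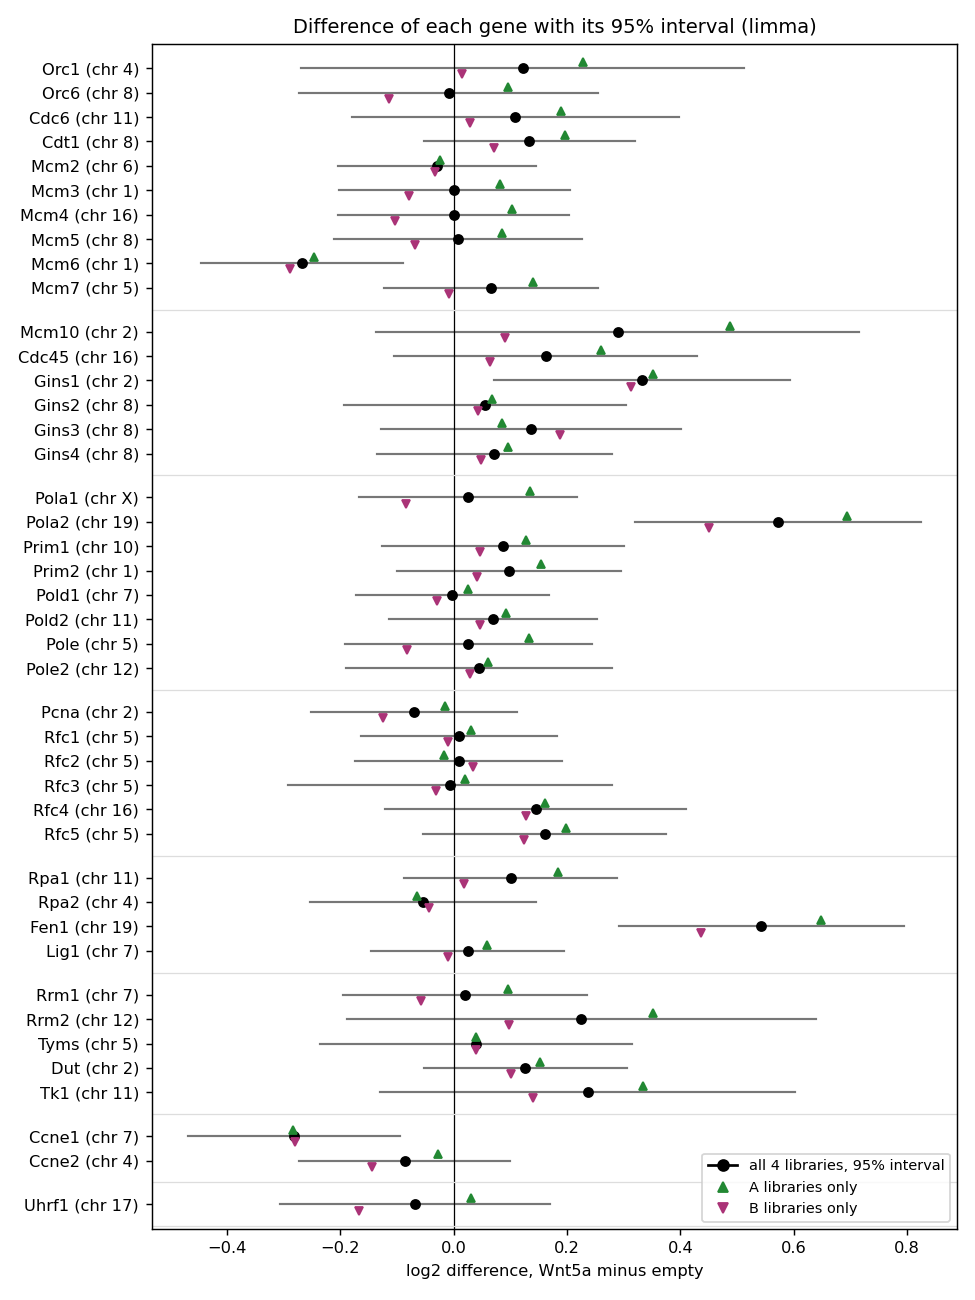
Log2 difference, Wnt5a minus empty, of each gene (horizontal axis) with its 95% limma interval (black), and the difference between the A libraries alone (green, upward triangles) and the B libraries alone (purple, downward triangles); the chromosome is given beside each symbol. Intervals exclude 0 for Mcm6, Gins1, Pola2, Fen1 and Ccne1, and the green symbol lies to the right of the purple one for 38 of 42 genes.

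Several genes of the set lie on chromosomes whose median tested gene also differed between the groups. Chromosomes 1, 11 and 19 had medians of -0.17, 0.17 and 0.36 over all their tested genes, while the medians of 17 other chromosomes lay between -0.02 and 0.02. The set has 9 genes on these 3 chromosomes: Mcm3, Mcm6 and Prim2 on chromosome 1, Cdc6, Pold2, Rpa1 and Tk1 on chromosome 11, and Pola2 and Fen1 on chromosome 19. The 4 genes of chromosome 11 all had estimates above 0, between 0.07 and 0.24. Of the 3 genes on chromosome 1, Mcm6 was below 0, Mcm3 was at 0.0013 and Prim2 at 0.10. The 33 genes on other chromosomes had a median of 0.03, with 24 above 0 (72.7%). All tested genes outside these chromosomes had a median of -0.0032, with 49.1% above 0. Over the 33 genes the median was 0.096 in the A pair of libraries and -0.0080 in the B pair. With the median of each chromosome subtracted, the lowest limma adjusted p in the set was 0.21, that of Ccne1. Whether the chromosome medians bear on these genes was not tested beyond this subtraction.

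**Figure D4:**
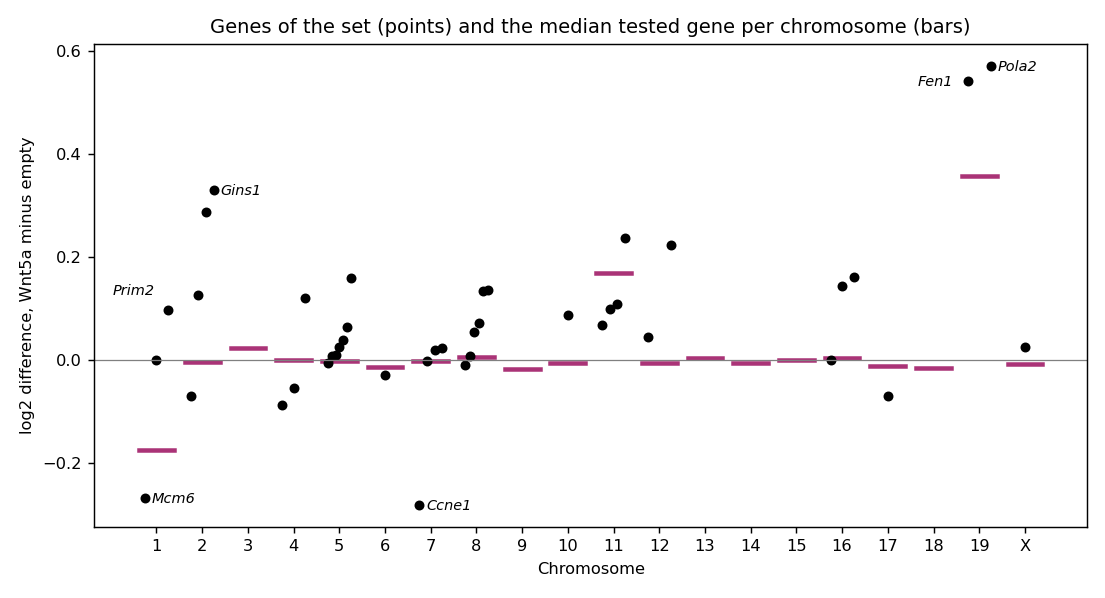
Log2 difference, Wnt5a minus empty (vertical axis), of each replication and S phase gene (points) by chromosome (horizontal axis), with the median of all tested genes of that chromosome as a bar. Pola2 and Fen1 stand above the raised bar of chromosome 19 (0.36), Mcm6 below the lowered bar of chromosome 1 (-0.17), while Gins1 and Ccne1 lie on chromosomes whose bars are near 0.

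For many genes the libraries of a group differed more than the groups did. The difference between libraries B and A, averaged over the 2 groups, was larger in size than the difference between the groups for 26 of the 42 genes (49.2% of all tested genes). Library B stood above library A in both groups for 27 genes, against 35.3% of all genes, and below it in both for 7, against 36.0%. The 5 genes of nucleotide supply were all higher in B in both groups, with medians of 0.24 in empty and 0.23 in Wnt5a cells. The largest such differences were those of Mcm10 (0.55 and 0.15), Rrm2 (0.52 and 0.27) and Tk1 (0.43 and 0.23), and Cdc6 went the other way (-0.15 and -0.31). Across the 42 genes the B minus A difference in empty cells correlated with that in Wnt5a cells (Pearson r = 0.756, against 0.44 across all tested genes). This is a description across genes, which share their libraries and are not independent.

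Genes of G2 and mitosis showed the same order, with B above A in both groups for 28 of 32, while 7 of the 8 neuroendocrine markers were lower in B in both groups. The median B minus A difference over the replication genes was 0.10 in empty and 0.05 in Wnt5a cells. Put the other way, the Wnt5a minus empty difference was larger in the A pair than in the B pair for 38 of the 42 genes (50.9% of all tested genes), with medians of 0.10 and 0.02. For 22 genes the difference was above 0 in both pairs (4512 of all 12357 tested genes), and for 6 it was below 0 in both (4283). With 1 library of each kind per group this gap between the pairs could not be tested. Summed over the set, the replication genes held 0.596% and 0.641% of all normalised reads in the empty libraries and 0.629% and 0.622% in the Wnt5a libraries. Empty library A thus stood lowest and empty library B highest.

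**Figure D5:**
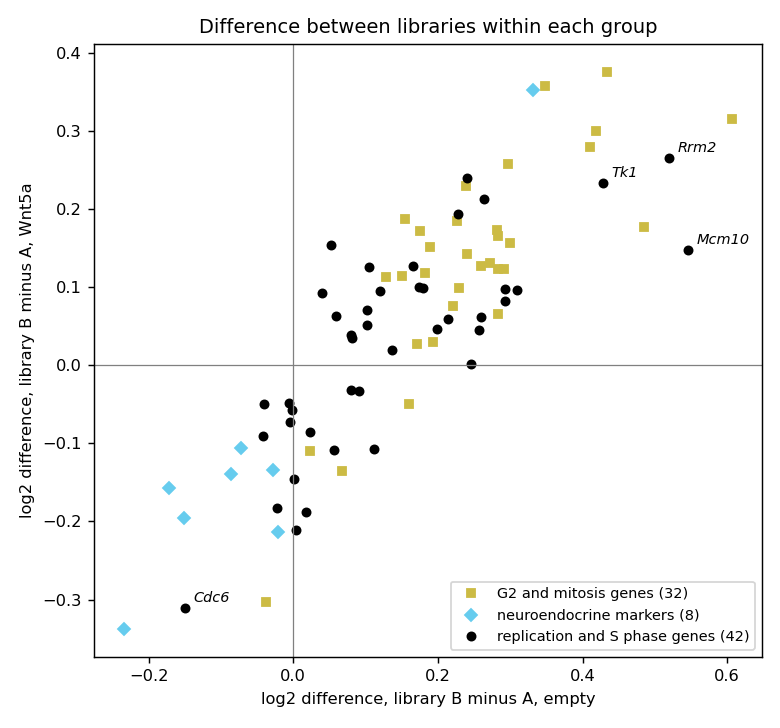
Log2 difference between library B and library A in empty cells (horizontal axis) and in Wnt5a cells (vertical axis) for replication and S phase genes (black circles, 42), genes of G2 and mitosis (yellow squares, 32) and neuroendocrine markers (blue diamonds, 8). Of the 42 replication genes 27 lie above 0 on both axes, and 7 of the 8 neuroendocrine markers lie below 0 on both.

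Further genes of the same pathway gave a similar picture. A list of 50 other replication genes, among them further subunits of the complexes above, checkpoint partners and chromatin assembly factors, had a median log2 difference of 0.03 with 34 above 0 (68%, against 50.7% of all genes). Limma called 0 of the 50 (2.06% of all genes), with 4 higher and 4 lower at an unadjusted p under 0.05 (16.1%). edgeR called 0 (1.99%) and DESeq2 called 1, Rnaseh2c (4.35%). Rnaseh2c, a subunit of ribonuclease H2, had the highest estimate (72.5 and 88.6 against 113 and 135, log2 difference 0.62; limma adjusted p = 0.11). Pold4, the small subunit of polymerase delta, had the lowest (41.4 and 34.1 against 22.3 and 28.1, log2 difference -0.57; limma adjusted p = 0.22). Both lie on chromosome 19, in opposite directions.

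The list of 32 genes of G2 and mitosis had a higher median, 0.14, with 29 above 0 (90.6%, against 50.7% of all genes). Limma called 1 of the 32 (2.06% of all genes), Kif11, the kinesin motor that drives the spindle poles apart, which rose from 1360 and 1654 to 2299 and 2406 (log2 difference 0.65; limma adjusted p = 0.034). Kif11 too lies on chromosome 19, and 0.29 remained after subtraction of the chromosome median (limma adjusted p = 0.34). Kif11 was also not called without the filter on low values, with a minimum value of 50, without the trend in eBayes, or without Wnt5a library B. DESeq2 called 4 (4.35% of all genes), Kif11, Top2a, Aurkb and Birc5, of which the last 3 lie on chromosome 11. Outside chromosomes 1, 11 and 19 limma, edgeR and DESeq2 each called 0 of 25 mitotic genes, 0 had an unadjusted limma p under 0.05, and their median was 0.13. Of these 25 genes, 24 had estimates above 0 (96%, against 49.1% of all tested genes outside these chromosomes). Of all 10235 tested genes outside these chromosomes, limma called 95 higher and 62 lower, DESeq2 called 140 higher and 151 lower, and 438 were higher and 635 lower at an unadjusted limma p under 0.05. The difference between the replication list and the mitotic list was not tested.

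Estimates were last set beside the promoter words, as a description with no test. The 14 genes with an E2F word had a median log2 difference of 0.03, from -0.27 (Mcm6) to 0.14 (Gins3). The 20 genes whose promoters held none had a median of 0.09, from -0.28 (Ccne1) to 0.57 (Pola2). The genes of the set with the largest differences in either direction, other than Mcm6, were thus those whose promoter windows held none of the 4 words or, as with Gins1, were not in the table. Genes without a word made up 20 of the 34 with a promoter. These values are without the subtraction of chromosome medians, which left 0.21 for Pola2 and 0.19 for Fen1. Any link between the words and the differences was not tested.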

How the data were processed

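The authors deposited 1 table per sample with a normalised signal value for each gene. TopHat, Bowtie, HTSeq and DESeq2 are named in the submitters' processing notes without versions or roles; the genome build, annotation and strand setting are not given in the sources used here. All deposited signal values (100%) were whole multiples of 1 step per sample (tolerance 0.001 of a read), so whole reads were recovered. Libraries were oligo-dT selected from 500 ng of total RNA, per the labels' protocols.

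Samples 1 to 4 and 5 to 8 of each group were averaged as libraries A and B (30220749 and 32592342 reads in empty, 35102931 and 35315408 in Wnt5a). Genes with a mean value of at least 10 (12357) entered limma 3.58.1 under R 4.3.3 (lmFit, then eBayes with trend) on log2(value + 1), which understates changes of low genes. P-values were two-sided and Benjamini-Hochberg adjusted over all genes tested (threshold 0.05). edgeR 4.0.16 (246 genes called) and DESeq2 1.42.0 (538) were run on reads summed per library. Other alternatives were quantile normalization, median centring, a minimum of 50 or no filter, pseudocounts of 0.1 and 10, no trend, 16 separate samples, a replicate block, removal of chromosome medians, and omission of each library. The scripts were tested on simulated data.

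The set and the other gene lists were chosen with earlier results of these data known; 1 neuroendocrine marker is not reported here. Full statistics are given for the highest and lowest estimate in each role, for the highest and lowest level per kb, and for list genes past the threshold. Chromosomes and promoters came from RefSeq (GRCm38.p6; 17622 symbols placed), lengths and 50-base uniqueness from GENCODE M21. Other genes, including Mcm10, Rrm2 and Cdc6, are named as members of the set, with the values that describe them.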

Additional observations from a re-analysis of the deposited data

How the results depend on the processing

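Of the 42 genes, limma called 0 with other pseudocounts, filters, scalings or no trend, as did edgeR. DESeq2 called 2 (all genes 538). Treating all 16 samples as replicates, which counts near-identical samples as independent, gave 14 (all genes 4377, 35.4%). Leaving out 1 library at a time gave 0 to 5 calls (all genes 138 to 1098, against 254), with the lone sample assumed to vary like the other group, and moved the median of the set from -0.00216 (without empty library A) to 0.115. Wnt5a stayed past the threshold throughout. All genes came to 146 without a filter, 102 at a minimum of 50 and 158 without trend. With chromosome medians removed, 206 genes passed (117 higher and 89 lower, against 171 and 83).

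The samples share numbers between the groups, but no label says that a number marks a shared culture or day. The A minus B differences of the 2 groups correlated across genes (Pearson r = 0.44, Spearman 0.53), and with only 2 pairs the pairing was not established. With the replicate block, 5 genes of the set (Mcm6, Gins1, Pola2, Fen1 and Ccne1), 8 other replication genes, 11 mitotic genes and 2095 of all genes (17.0%) passed. Outside chromosomes 1, 11 and 19 the block gave 6 of 25 mitotic genes, all higher, beside 453 higher and 706 lower among 10235 genes.

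Other replication genes came to 17 with 16 samples, 1 with DESeq2 and 0 to 2 without 1 library. Mitotic genes came to 17 with 16 samples, 4 with DESeq2, 0 without a filter, at a minimum of 50, without trend or with chromosome medians removed, and 0 to 7 without 1 library.

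Over the alternatives 24 genes of the set changed sign at least once. Removal of chromosome medians gave Cdc6 -0.0617, Mcm4 -0.00363, Pold2 -0.101 and Rpa1 -0.0699. Median centring gave Mcm3 -0.0178, Mcm4 -0.0191, Mcm5 -0.0113, Rfc1 -0.0094 and Rfc2 -0.0105. DESeq2 gave Mcm4 -0.000628, and quantile normalization gave Pold1 0.0243. With chromosome medians removed, and with median centring, the value subtracted was larger than the main estimate of each gene named. The cause of the other changes of sign was not tested. Leaving out 1 library at a time, estimates ran for Orc1 from -0.0329 to 0.277, Orc6 from -0.156 to 0.138, Cdc6 from -0.047 to 0.264, Mcm3 from -0.0903 to 0.093, Mcm4 from -0.0938 to 0.0938, Mcm5 from -0.0988 to 0.114, Mcm7 from -0.00737 to 0.138, Gins2 from -0.00381 to 0.116, Pola1 from -0.0306 to 0.0816, Prim1 from -0.00277 to 0.177, Pold1 from -0.0306 to 0.0262, Pole from -0.0796 to 0.131, Pole2 from -0.00608 to 0.0958, Rfc1 from -0.0299 to 0.0493, Rfc2 from -0.0377 to 0.055, Rfc3 from -0.137 to 0.126, Rpa2 from -0.117 to 0.00924, Lig1 from -0.012 to 0.0611, Rrm1 from -0.0797 to 0.119, Rrm2 from -0.0348 to 0.484, Tyms from -0.0807 to 0.16 and Uhrf1 from -0.198 to 0.0614.

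With 2 libraries per group, the intervals cover the spread between these libraries only, drawn by limma toward that of genes of similar level. Counts of overlapping genes (Fen1, Gins2) or genes with close copies (Mcm7, Pcna) are uncertain, since neither strand use nor the handling of shared reads is known. In all, 9 genes of the set had under 90% unique 50-base windows. The others were Rfc2 (80.2%), Uhrf1 (81.1%), Ccne2 (82.6%), Pole2 (88.2%) and Rfc4 (88.9%), to which the same limit applies.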
